A study of Rattus norvegicus with 6 samples.

Results

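The miR-34 and miR-449 family was examined as 6 mature microRNAs (miRNAs) of the rat: miR-34a-5p, miR-34b-5p, miR-34b-3p, miR-34c-5p, miR-34c-3p and miR-449a-5p. They were matched by name in the array annotation, and all 6 were among the 758 miRNAs on the array. The tested samples were myocardium of the left ventricle from male rats of 8 weeks, collected 24 h after the left coronary artery had been tied off, an operation that causes a myocardial infarction (MI). Only rats in which the electrocardiogram and other observations showed a successful infarction were used. The controls were male rats of the same age that had the same operation without ligation. Their labels state 0 h, so the effects of ligation and of time since the operation cannot be told apart. There were 3 samples per group, each on 1 single-colour Agilent array. The labels do not state whether each sample came from a separate animal, so p-values measure only the spread between these samples.

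MiRNAs are short RNAs that lower the output of messenger RNAs whose sequence pairs with bases 2 to 8 of the miRNA, the seed. The transcription factor p53, which responds to DNA damage and other stress, activates the genes of miR-34a and of the miR-34b and miR-34c cluster, and the targets of the 5p strands include cell cycle and survival genes such as Cdk6, Ccnd1 and Bcl2. In mouse heart, miR-34a is known as a miRNA that is raised with age and after infarction and that limits cardiomyocyte division. MiR-449a has the seed of the miR-34 5p strands and is known, with miR-34b and miR-34c, for high levels in epithelia with motile cilia.

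The mature sequences are shown because shared seeds define the family and because probes for near-identical members could cross-hybridize. They are RefSeq sequences of build GRCr8, with the seed in capitals, and all 6 members were found there by name. The 4 members with the seed of miR-34a, and miR-449c-5p, which is not a member, were the following.
rno-miR-34a-5p: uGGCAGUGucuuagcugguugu
rno-miR-34b-5p: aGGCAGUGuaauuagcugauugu
rno-miR-34c-5p: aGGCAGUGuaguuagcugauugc
rno-miR-449a-5p: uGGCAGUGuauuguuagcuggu
rno-miR-449c-5p: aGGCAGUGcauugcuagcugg

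The 3p strands of the miR-34b and miR-34c hairpins share another seed.
rno-miR-34b-3p: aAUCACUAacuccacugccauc
rno-miR-34c-3p: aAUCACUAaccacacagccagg

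The seed GGCAGUG was held by 5 of the 693 mature miRNA names in the RefSeq table, the 5 listed here, and AUCACUA by 2 of 693. Counted from the 5′ end, miR-34b-5p and miR-34c-5p were identical at 21 of 23 positions and differed by A11G and U23C. Compared position by position without gaps, miR-34a-5p matched miR-449a-5p at 15 of 22 positions and miR-34b-5p at 11 of 22. Stretches that are shared but shifted after the seed count as mismatches there, so both counts understate the likeness. MiR-449a-5p and miR-449c-5p were identical at 18 of the 21 positions compared. The 3p strands of miR-34b and miR-34c were identical at 17 of 22.

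In GRCr8, mature miR-34a-5p lies on the plus strand at chr5:165815971-165815992, inside the long non-coding RNA gene LOC103692514. MiR-34b-5p (chr8:60306657-60306679), miR-34b-3p (chr8:60306621-60306642), miR-34c-5p (chr8:60306133-60306155) and miR-34c-3p (chr8:60306101-60306122) lie on the minus strand. The hairpins of miR-34b and miR-34c are 441 bases apart, and both overlap Hoatz on the same strand, a gene tied to motile cilia in mouse. MiR-449a-5p lies on the plus strand at chr2:46403925-46403946, with the miR-449c hairpin 1436 bases away and both within the long non-coding RNA gene LOC134485839.

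Across the series, the arrays detected between 446 and 472 miRNAs each, and 433 were detected on all 6. Detection of a probe required that more than 50% of its spots be well above background, and 1 detected probe sufficed for its miRNA. All 6 cardiomyocyte markers (miR-1-3p, miR-133a-3p, miR-133b-3p, miR-208a-3p, miR-208b-3p and miR-499-5p) were detected on all 6 arrays. The samples are whole tissue, so fewer cells of a type and less RNA per cell cannot be told apart. The arrays carry a header code of 2 kinds: the 3 controls and MI replicate 1 have code 1, and MI replicates 2 and 3 have code 2. With the code as a block, or within code 1, a difference between groups therefore rests on MI replicate 1 alone against the 3 controls. The other 5 arrays were scanned together, apart from control replicate 3.

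None of the 4 testable members passed the test in either direction. MiR-449a-5p, which did not meet the detection filter for testing, was detected on 2 of the 3 MI arrays and on none of the 3 control arrays. A less demanding flag of the scanner software also marked it on control replicates 1 and 3. MiR-34a-5p, the p53 target best known in heart, differed by 0.01 on the log2 scale. MiR-34b-5p was 21.1% lower after MI, the largest difference among the 4, and did not pass. MiR-34b-3p differed by less than its spread between replicates in either group. MiR-34c-5p differed by less than its SD in MI (0.25) but by more than its SD in controls (0.07). MiR-34c-3p was detected on no array. Testing was limited to miRNAs with detection on every array of MI or of control, which left 449 of the 758 miRNAs and 4 of the 6 members. Those 4 were detected on all 6 arrays, so none of them passed through 1 group alone. At a limma p adjusted by the Benjamini-Hochberg method over all 449 and a threshold of 0.05, 0 members were higher and 0 lower, where 2.45% of all tested miRNAs passed (1.78% higher and 0.668% lower). At an unadjusted p under 0.05, 0 members were higher and 1 was lower, against 13.6% of all tested miRNAs (8.46% higher and 5.12% lower). The median log2 fold change (MI minus control) was -0.05 over the 4 members and 0.02 over all 449.

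Among the 5p strands, which carry the family seed, miR-34a-5p had a scaled signal of 4266, 4982 and 4985 in MI replicates 1 to 3, against 4216, 4489 and 5456 in control replicates 1 to 3. Signals are fluorescence in arbitrary units, scaled between arrays and summed over the probes of a miRNA. The lowest and the highest array were both controls, and the MI arrays lay between them. The log2 signal was 12.21 ± 0.13 in MI and 12.20 ± 0.19 in controls (SD, n = 3 each), and their difference was 0.01 ± 0.12 (SE; limma adjusted p = 0.962). The 95% interval of the difference ran from -0.28 to 0.30, which allows a change between 0.824-fold and 1.23-fold. Its 2 probes gave differences of 0.00038 and 0.02. The sign was the opposite under several settings, among them the header code as a block, at -0.14, while the shared scan alone gave 0.12.

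The partner strand miR-34a-3p, which is not a member and has another seed, was detected on all 6 arrays. Its signal was 51.9, 72.9 and 68.5 in MI replicates 1 to 3, against 59.6, 54.4 and 65.9 in control replicates 1 to 3. The groups overlapped, and the log2 fold change was 0.09 ± 0.15 (SE; limma adjusted p = 0.807).

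MiR-34b-5p, made from the cluster on chromosome 8, had a signal of 212, 241 and 246 in MI replicates 1 to 3, against 293, 272 and 321 in control replicates 1 to 3. Every MI array lay below every control array. Groups did not overlap for 1 of the 4 members, against 20.7% of all tested miRNAs (10.9% with MI higher and 9.8% with MI lower). Log2 signals of 7.86 ± 0.12 in MI and 8.20 ± 0.12 in controls (SD, n = 3 each) gave a log2 fold change of -0.34 ± 0.10 (SE; limma adjusted p = 0.195, unadjusted p = 0.0109). The 95% interval without adjustment ran from -0.57 to -0.11. Both probes were lower in MI, by -0.44 and -0.30 on the log2 scale. Other filters, floors and spread estimates and the replicate block leave the difference as it is by construction. Other scalings, summaries and array subsets gave -0.47 to -0.28. With normexp background correction the difference was -0.22. It passed the threshold under none of the alternatives (limma adjusted p from 0.0695 to 0.371). With the header code as a block, or within the 4 arrays of code 1, the difference was -0.47. Both settings rest on MI replicate 1 alone against the controls, so they are not separate checks. Within the shared scan the difference was -0.28.

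MiR-34c-5p differs from miR-34b-5p at the 2 positions given above and is made from the neighbouring hairpin. Its signal was 349, 265 and 257 in MI replicates 1 to 3, against 328, 309 and 299 in control replicates 1 to 3. MI replicate 1 lay above every control, and MI replicates 2 and 3 lay below every control. The SD of the log2 signal was 0.25 in MI and 0.07 in controls (n = 3 each). The log2 fold change was -0.12 ± 0.13 (SE; limma adjusted p = 0.715), with a 95% interval from -0.43 to 0.19. It was -0.29 without MI replicate 1 (limma adjusted p = 0.321) and 0.16 with the header code as a block or within code 1. Its 2 probes gave -0.10 and -0.13, so both showed the same pattern. Whether the probes of miR-34b-5p and miR-34c-5p bind each other's miRNA was not tested.

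**Figure D1:**
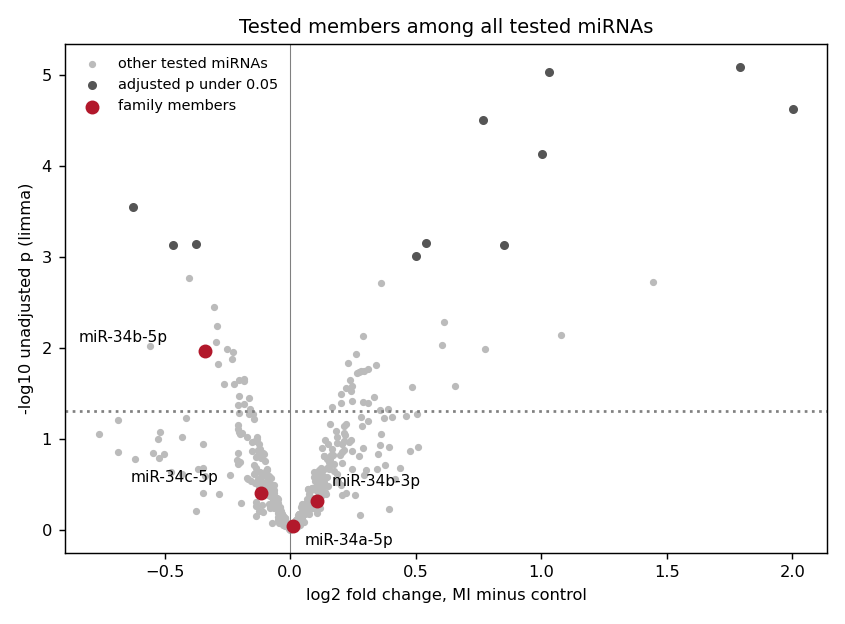
Log2 fold change (MI minus control, horizontal axis) against -log10 of the unadjusted limma p (vertical axis) for the 449 tested miRNAs, with the 4 tested members in red and the 11 miRNAs past an adjusted p of 0.05 in dark grey. The dotted line marks an unadjusted p of 0.05; miR-34b-5p, at -0.34, is the only member above it.

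Of the 3p strands, miR-34b-3p had a signal of 67.0, 69.5 and 89.1 in MI replicates 1 to 3, against 79.0, 67.7 and 62.2 in control replicates 1 to 3. The groups overlapped, with 1 MI array below 2 of the controls. The log2 fold change was 0.11 ± 0.14 (SE; limma adjusted p = 0.780), with a 95% interval from -0.23 to 0.45. MI replicate 3 decided its sign: without it the value was -0.02. With the header code as a block, or within code 1, it was -0.05.

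MiR-34c-3p was not well above background on any array, and 1 of its 16 spots was so on MI replicate 2 and 0 on every other array. Its summed signal over 4 probes was 11.5, 15.2 and 18.3 in MI replicates 1 to 3, against 13.5, 6.19 and 14.2 in control replicates 1 to 3. MiR-34c-3p was detected in neither group, so no fold is given. The scanner software's own flag, which asks less of a signal, marked it as detected on MI replicates 2 and 3 and on control replicate 3.

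**Figure D2:**
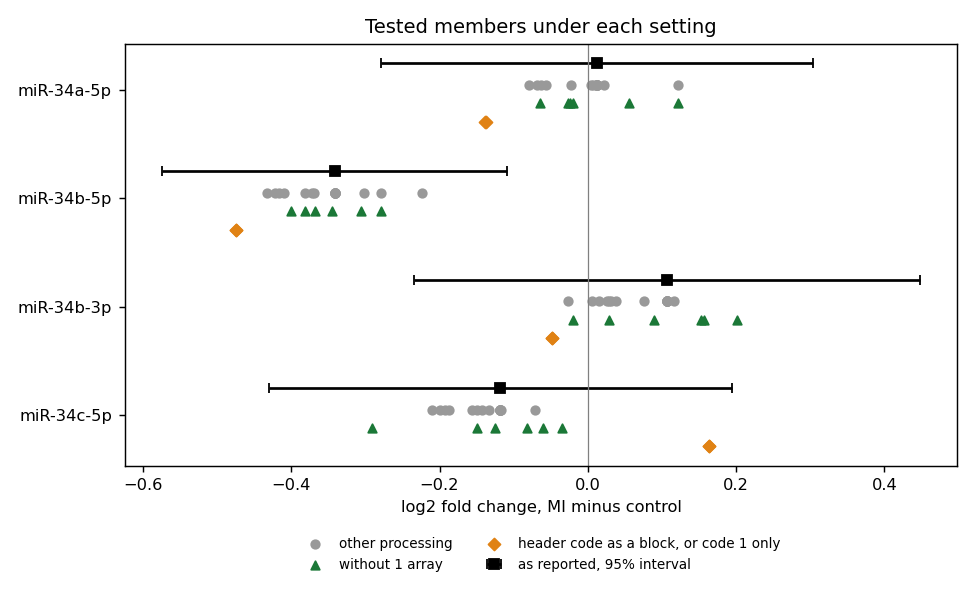
Log2 fold change (MI minus control, horizontal axis) of the 4 tested members as reported, with its 95% interval (black), and under each alternative: other processing (grey), without 1 array (green) and with the header code as a block or code 1 alone (orange). All points of miR-34b-5p lie below 0, and the orange points of miR-34c-5p, at 0.16, lie on the other side of 0 from the rest.

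The strands were also compared by their ratio within an array, which does not depend on the scaling between arrays. The level of such a ratio depends on the probes, so only its difference between groups is read. The log2 ratio of miR-34b-5p over miR-34b-3p, strands of 1 hairpin, was 1.66, 1.79 and 1.47 in MI replicates 1 to 3, against 1.89, 2.01 and 2.37 in control replicates 1 to 3. Every MI array lay below every control array, and the means of 1.64 ± 0.16 in MI and 2.09 ± 0.25 in controls (SD, n = 3 each) differed by -0.45. The log2 ratio of miR-34a-5p over miR-34b-5p was 4.33, 4.37 and 4.34 in MI replicates 1 to 3, against 3.85, 4.05 and 4.09 in control replicates 1 to 3. Every MI array lay above every control array here, with a difference of 0.35. In a two-sided exact permutation test each of these 2 differences had p = 0.1, the smallest that 3 against 3 samples allow, and an adjusted p of 0.3 over the 6 pairs of tested members, so neither could pass the threshold in this design. The other 4 pairs had exact permutation p values between 0.5 and 0.8, and their groups overlapped.

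**Figure D3:**
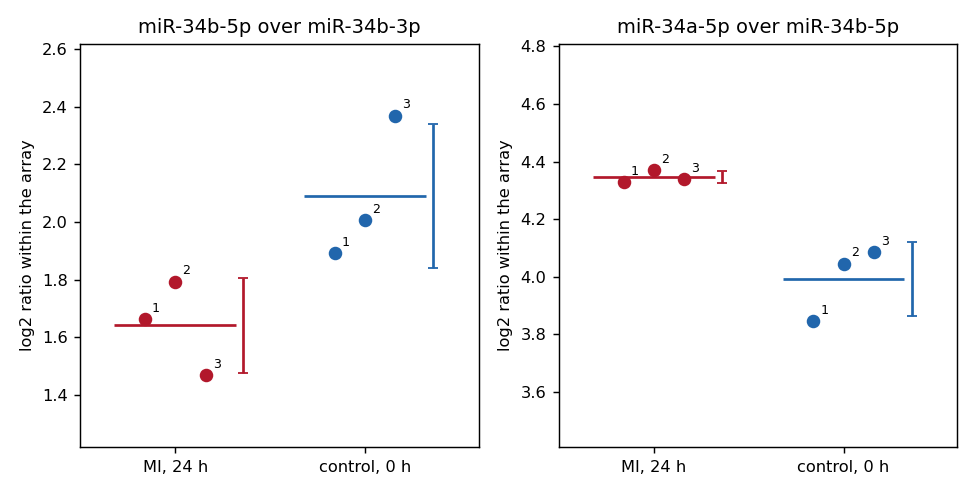
Log2 ratio of 2 members within each array (vertical axis, 1.4 log2 units in each panel), MI at 24 h left of control at 0 h. Points are arrays with their replicate number, lines are means and bars are SD (n = 3); the MI arrays lie below the controls for miR-34b-5p over miR-34b-3p and above them for miR-34a-5p over miR-34b-5p.

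MiR-449a-5p, the member of the second gene cluster with the family seed, had 16 spots from 2 probes on each array. Of these, 3, 14 and 10 were well above background in MI replicates 1 to 3, against 0, 1 and 1 in control replicates 1 to 3. By the detection rule it was detected on MI replicates 2 and 3 and on no control. The summed signal was 15.1, 37.0 and 29.1 in MI replicates 1 to 3, against 10.7, 8.34 and 10.7 in control replicates 1 to 3. MI replicate 1 lay close to the controls and MI replicates 2 and 3 well above them. The brighter probe read 10.4, 25.9 and 20.1 in MI replicates 1 to 3, against 7.47, 5.96 and 6.62 in control replicates 1 to 3, and the dimmer one 4.69, 11.1 and 8.92 against 3.23, 2.38 and 4.08, so both probes showed the same order of arrays in MI.

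MiR-449a-5p was detected on no control array, so its control level is uncertain. With the background and floor used here, the MI mean was 2.42-fold a raised control mean. In that control mean each array has its measured signal or its lowest detected one, whichever is higher. The MI mean is the mean log2 signal over all 3 MI arrays, 2 of which detected the miRNA. MI replicate 1, which did not detect it, enters at its measured signal. The lowest detected signal is that of a single probe, while the signal of miR-449a-5p is a sum over 2 probes. The 2.42-fold value is therefore not a strict lower bound. The measured log2 means were 4.66 ± 0.67 in MI and 3.30 ± 0.21 in controls (SD, n = 3 each), a difference of 1.36. That difference was 0.23 with normexp background correction and 0.45 with a floor 4 times as high. Both are smaller than 1.28, the 2.42-fold value on the log2 scale. Both settings narrow differences between low signals by construction. Normexp adds an offset of 50, and the higher floor replaces the signal of MI replicate 1 and of every control. Of all 758 miRNAs on the array, 4 (0.528%) were detected on no control array and on at least 2 MI arrays, and 2, miR-449a-5p and miR-365-5p, on MI replicates 2 and 3 alone. MiR-365-5p was named here after its values were seen.

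Because 1 MI array did not detect it, miR-449a-5p was left out of the main test. With every miRNA tested regardless of detection, limma gave an adjusted p of 0.308, and with the scanner software's own flag, which marked it on all 3 MI arrays and on control replicates 1 and 3, an adjusted p of 0.141. Without MI replicate 1 it entered the test and passed (1.70 on the log2 scale, limma adjusted p = 0.00928), but it did so through the MI arrays where it is high and after the array that did not detect it was dropped, so this p supports nothing. The MI arrays that detected it are the 2 arrays with header code 2, which no control carries. Within code 1, neither MI replicate 1 nor any control detected miR-449a-5p, so no fold is given there. The part of the array code was not tested. The authors' processed log2 values were 2.51, 4.15 and 3.64 in MI replicates 1 to 3, against 1.17, -3.0 and -0.86 in control replicates 1 to 3, where -3.0 is the lowest value that array holds, so the 4.33 between their means has no measured lower end.

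**Figure D4:**
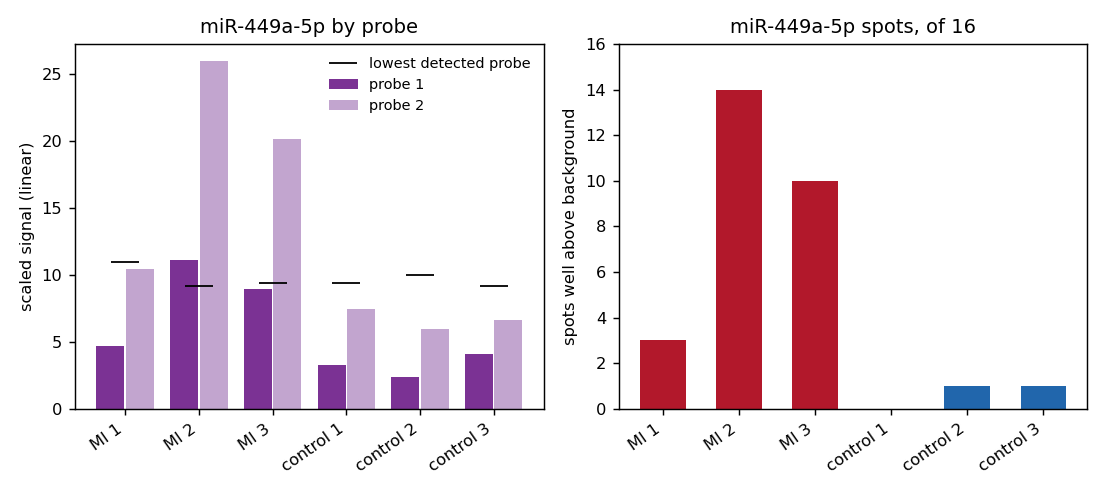
Left, the scaled linear signal (vertical axis) of the 2 probes of miR-449a-5p on each MI and control array, with a tick at the lowest signal of any detected probe on that array. Right, the number of its 16 spots well above background, 3, 14 and 10 on the MI arrays against 0, 1 and 1 on the control arrays.

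Markers of other cell types were measured beside these values. The 6 leukocyte markers, all detected on every array, had a summed signal of 16950, 22991 and 21291 in MI replicates 1 to 3, against 15673 to 17857 in controls. The sum was thus above every control in MI replicates 2 and 3, but the single markers did not all lie on that side. In those 2 arrays miR-223-3p, miR-142-3p and miR-142-5p lay above every control, and miR-150-5p and miR-342-3p below every control. MiR-155-5p lay within the control range in MI replicate 2 and above it in MI replicate 3. The part of the leukocyte markers in the signal of miR-449a-5p was not tested. None of the 6 passed in limma over all miRNAs, and miR-223-3p, a myeloid miRNA, was closest (log2 fold change 1.45 ± 0.29, SE; adjusted p = 0.0619). The 8 epithelial markers were measured because miR-34b, miR-34c and miR-449a are abundant in ciliated epithelia. Their summed signal was 436, 539 and 516 in MI replicates 1 to 3, against 431 to 531 in controls, so the groups overlapped. MiR-205 and miR-375-3p were detected on no array, miR-200a-3p, miR-200b-3p and miR-429 on 0 MI arrays and 1 control array, miR-200c-3p on 2 MI and 2 control arrays, and only miR-141-3p and miR-203a-3p on all 6. The 4 erythroid markers summed to 24346, 26099 and 33704 in MI replicates 1 to 3, against 19448 to 27208 in controls. The 2 endothelial markers, miR-126a-3p and miR-126a-5p, summed to between 74116 and 74562 in MI, against 76179 to 87862 in controls. Neither passed in limma over all miRNAs (adjusted p = 0.491 and 0.525), and the groups overlapped for miR-126a-5p.

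The other p53-linked miRNAs, reported as p53 targets or as processed with the help of p53 in human or mouse cells, were a list of 15, of which 12 were tested. In limma adjusted over all miRNAs 0 rose and 0 fell, and at an unadjusted p under 0.05 there were also 0 and 0. Their log2 fold changes lay above 0 for 6 and below 0 for 6, with a median of -0.01, beside 0.02 over all 449. The smallest p values belonged to miR-194-3p, miR-145-3p, miR-141-3p and miR-143-3p. MiR-194-3p, from a p53-activated cluster, stood at 0.29 ± 0.17 (SE; limma adjusted p = 0.522) and was detected on 3 MI and 2 control arrays. MiR-145-3p and miR-143-3p, from the smooth muscle cluster, stood at -0.20 ± 0.13 and -0.12 ± 0.10 (SE; limma adjusted p = 0.562 and 0.656). MiR-141-3p, an epithelial miRNA, stood at 0.35 ± 0.25 (SE; limma adjusted p = 0.603). MiR-192-3p and miR-215 were detected on no array.

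As a description over the 6 arrays, which share their scaling, the tested miRNAs outside the family whose log2 signal followed each member most closely were ranked by Pearson's r among 444 miRNAs. For miR-34b-5p these were miR-101a-5p (r = 0.972), miR-101a-3p (r = 0.970) and miR-24-2-5p (r = 0.935), with log2 fold changes of -0.29, -0.22 and -0.12, none of which passed the threshold. For miR-34a-5p they were miR-598-3p (r = 0.966), miR-324-5p (r = 0.929) and miR-32-5p (r = 0.912). For miR-34b-3p they were miR-184, miR-3550 and miR-7a-2-3p (r = 0.972, 0.970 and 0.967), and for miR-34c-5p miR-3551-3p, miR-224-3p and miR-27a-3p (r = 0.95, 0.920 and 0.884). No miRNA was among the closest for more than 1 member.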

How the data were processed

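Total RNA of 6 rat myocardium samples was labelled with cyanine 3 and hybridized to single-colour Agilent miRNA arrays. The labels' description of labelling names a kit for complementary RNA, which fits the stated dye, Cyanine 3-pCp, poorly, and which was used is not settled here. The submitters' processing notes name Agilent Feature Extraction 11.0.1.1. Per the file headers, the measured column is a linear fluorescence intensity after background subtraction. The other columns used are flags of 0 or 1, per the file headers. The authors' deposited processed values are on a log2 scale, with a median of 3.95 and an upper quartile of 7.04 on every array. How they were made is not given in the sources used here, and their direction and ranks follow the scanner's total signal.

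Outlier spots (8.32% to 9.63% per array) were left out, spots of a probe were averaged, each array was scaled by the 75th percentile over 885 probes that every array detected, probes of a miRNA were summed, and values were floored at 5.14 (1% of the percentile level) before log2. No spot was saturated. Spots of 1 probe on 1 array had a coefficient of variation between 0.338% and 12.1% (median 3.73%, 8 probes of members). The number of arrays limits the precision. MI was set against control in limma (lmFit, eBayes; version 3.58.1, R 4.3.3) with no covariate, and p-values were adjusted by Benjamini-Hochberg across the 449 miRNAs tested. The same steps were tested on simulated data. Named are the members, miRNAs of the same seed, partner strands, marker and p53-linked lists and the 3 miRNAs closest to each member. The rule for the members uses names alone, but members and lists were chosen with earlier results of these data known. The alternatives covered scaling, probe summary, background, filter, floor, spread, blocks and single arrays left out. Names are those of the array design, and GRCr8 is not the build of the files (rn4), so it was used only for sequences, their positions and neighbouring genes.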

Additional observations from a re-analysis of the deposited data

Results flagged for a closer look

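MiR-449c-3p, from the hairpin next to miR-449a, was detected on no array and entered no comparison. The scanner software's weaker flag, for a signal above 0 beyond its error, marked 2, 11 and 14 of its 16 spots in MI replicates 1 to 3, against 0, 0 and 1 in control replicates 1 to 3. Of the other strands of that cluster, also detected on no array, miR-449c-5p, which has the family seed, had 0 such spots on every MI array, against 0, 1 and 2 in control replicates 1 to 3, and miR-449a-3p had 0, 0 and 1 in MI replicates 1 to 3, against 0 on every control array. MiR-449a-5p, the member in that cluster, had 14, 16 and 16 such spots in MI replicates 1 to 3, against 14, 14 and 15 in control replicates 1 to 3. By this flag its groups overlapped. For miR-449c-3p the lowest MI array, with 2 spots, was above the highest control, with 1. This signal, in a measure that the comparisons do not use, is why miR-449c-3p is given. How many of all the miRNAs on the array show such a gap by this flag was not counted. The part of the array code, which MI replicates 2 and 3 share, was not tested.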

How the results depend on the processing

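The log2 fold change of miR-34a-5p lay near 0 and changed sign under the 75th percentile over all probes (-0.063), the median of detected probes (-0.080), no scaling (-0.057), the software's total signal (-0.068), the authors' processed values (-0.022), and the header code as a block or code 1 alone (-0.14 each). Leaving out 1 array gave -0.065 to 0.12. Under the settings listed from the 75th percentile over all probes to the software's total signal, the median over all 449 tested miRNAs moved too. That median was -0.059, -0.076, -0.053 and -0.063 in this order, against 0.016 as reported. MiR-34b-3p changed sign with the authors' values (-0.027) and with the header code as a block (-0.048) or code 1 alone (-0.049), and ranged from -0.020 to 0.20 without 1 array. MiR-34c-5p changed sign with the code as a block or code 1 alone (0.16 each). The ratio of miR-34a-5p over miR-34b-3p differed by 0.0051 with the authors' values and by -0.27 to 0.093 without 1 array. The ratio of miR-34b-5p over miR-34b-3p differed by -0.34 with the authors' values, where its groups overlapped (exact permutation p = 0.2). Without 1 array it differed by -0.55 to -0.31. MiR-34c-3p, detected in neither group, differed by 2.21 with the authors' values. There MI replicate 1 and control replicates 1 and 2 stand at their array's lowest value, so this is no measured change. MiR-449a-5p differed by 4.33 with the authors' values, 0.23 with normexp and 0.45 with a floor 4 times as high. With the code as a block or code 1 alone it differed by 0.62, between signals that did not meet the detection rule. The normexp offset of 50 and the higher floor narrow differences between low signals by construction. Other causes were not tested. The number of members past the threshold was 0, and 1 without MI replicate 1, when miR-449a-5p met the filter because the MI array that did not detect it was dropped. Over all miRNAs, 11 passed, against 7 without scaling, 5 with no filter, 6 with the higher floor, 3 with the replicate number as a block, 3 with the code as a block, 1 within code 1, 5 within the shared scan (the same arrays as without control replicate 3) and 4 to 12 without 1 array. Scaling by all probes or by the median gave 5 higher and 5 lower, in place of 8 and 3. Same-numbered samples deviated together with correlations of 0.116, -0.036 and 0.113, and no sample correlated best with its own number, so the numbers were not taken to pair samples, and under the replicate block 0 members passed (miR-34b-5p, limma adjusted p = 0.278). Weak signal over background limits miR-449a-5p and miR-34c-3p.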
